A study of Homo sapiens with 9 samples.

Results

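KRT5, KRT14 and KRT15, the 3 keratin genes of the basal epidermal layer, were followed by name through 9 RNA-seq libraries of HaCaT, an immortalized line of human skin keratinocytes. They are 3 of the 78899 gene IDs that each library lists, and all 3 passed the filter on low counts that left 16921 genes for testing. The libraries form 3 groups of 3: a subpopulation sorted by fluorescence and called BD, another sorted subpopulation called NBD, and the cell line called control. The labels do not spell out either abbreviation or name the stain used for sorting, and the study's stated interest was in cell states associated with progenitors. All cells were grown in high-glucose DMEM with low-calcium fetal bovine serum, and all groups come from this 1 line, so no primary keratinocytes are included. Whether the replicates were grown as separate cultures is not stated, so each p-value rests on a spread between libraries that may be technical.

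Keratins are the intermediate filament proteins of epithelia, and each filament is built from pairs of an acidic type I and a basic type II chain. KRT5 (type II) pairs with KRT14 (type I) in the mitotically active basal cells of stratified epithelia, and inherited defects of either gene cause epidermolysis bullosa simplex, a skin-blistering disease. KRT15 is a further type I keratin of basal cells and a marker of stem cells of the hair follicle bulge. When epidermal cells leave the basal layer, they switch to KRT1 and KRT10.

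In GRCh38 with GENCODE 29, KRT5 (ENSG00000186081) lies in the type II cluster on the minus strand of chromosome 12, from 52514575 to 52520687. KRT15 (ENSG00000171346, 41513743 to 41522529) and KRT14 (ENSG00000186847, 41582279 to 41586921) lie in the type I cluster on the minus strand of chromosome 17. No annotated gene overlaps KRT5 or KRT14, and the microRNA gene MIR6510 lies inside KRT15. The coding sequence is 1770 bases long in KRT5, 1416 in KRT14 and 1368 in KRT15. The KRT15 model runs far upstream of its coding part, with a first exon of 4084 bases that ends 1087 bases short of the KRT19 model, and the sources used here do not say whether the authors' annotation includes it.

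Some of the coding sequence is identical to that of other keratins, so reads from there cannot be assigned with certainty. The longest identical coding stretch that each gene shares with a closely related keratin is shown here because it marks where counts are uncertain. KRT6A is shown for KRT5 because KRT6B and KRT6C, with longer stretches of 127 and 134 bases, were barely detected. Capitals mark the identical bases and lower case the 15 bases on either side, all 5′ to 3′ in the sense of the gene, as in the GENCODE 29 transcripts, and the coordinates of the KRT15 stretch include the intron inside it.
KRT14 with KRT16, exon 1, chr17:41586368-41586525: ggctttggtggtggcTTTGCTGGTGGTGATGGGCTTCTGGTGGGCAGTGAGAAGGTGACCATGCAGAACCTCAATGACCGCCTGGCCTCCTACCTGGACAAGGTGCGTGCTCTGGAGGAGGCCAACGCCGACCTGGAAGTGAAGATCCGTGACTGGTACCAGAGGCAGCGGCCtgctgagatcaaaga
KRT5 with KRT6A, exon 2, chr12:52519018-52519121: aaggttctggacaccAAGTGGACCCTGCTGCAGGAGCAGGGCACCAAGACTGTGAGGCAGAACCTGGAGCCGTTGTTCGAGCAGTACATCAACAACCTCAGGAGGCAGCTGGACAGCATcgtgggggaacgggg
KRT15 with KRT13, exons 2 and 3, chr17:41516937-41517120: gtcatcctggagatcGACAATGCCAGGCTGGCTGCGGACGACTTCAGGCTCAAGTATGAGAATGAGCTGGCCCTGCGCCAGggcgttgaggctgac
The stretches are 158, 104 and 66 bases long, and over the aligned coding sequence 88.7% of bases were identical between KRT14 and KRT16, 83.2% between KRT5 and KRT6A and 82.5% between KRT15 and KRT13. Over the whole mRNA, 5.95% of the 100-base windows of KRT14 occurred in another gene's transcript (KRT16 and its pseudogenes KRT16P4 and KRT16P5). The share was 1.44% for KRT5 (KRT6A, KRT6B and KRT6C) and 0% for KRT15. For 50-base windows the shares were 23.8% for KRT14, 3.99% for KRT5 and 0.328% for KRT15. The mRNA used for KRT15 has 5237 bases, with the long first exon, against 1662 for KRT14 and 2531 for KRT5. This lowers the KRT15 share for 50-base windows, and without that exon it would be higher. At that length KRT14 also shared windows with KRT17 and pseudogenes of both KRT16 and KRT17, and its longest coding stretch identical to KRT17 was 59 bases. KRT16 and KRT6B stayed low, at no more than 10.4 and 1.21 CPM in any library, while KRT17 reached 957 CPM and KRT6A 630.5 CPM (CPM, counts scaled to the adjusted library total).

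Control replicates 1 and 2 stood apart from control replicate 3 and from the sorted libraries, so results against control are given with and without control replicate 3. Total counts were 25754757 to 28948743 in BD, 25862752 to 29512856 in NBD and 17128797 to 25782938 in control. Ribosomal RNA of mitochondria took 17.3 to 22.3% of counts in BD and 26.8 to 28.9% in NBD, against 12.3%, 11.9% and 20.7% in control replicates 1 to 3. All 10 genes of a list of keratinocyte markers were tested, and their summed level was 2994 to 3439.8 CPM in BD, 2632 to 3459.9 CPM in NBD and 2939.9 to 4649.9 CPM in control. Of 6 immune markers, 3 averaged at least 1 CPM (CD14, CD74 and HLA-DRA). The 6 summed to 22.8 to 47.7 CPM in BD, 20.9 to 51.5 CPM in NBD, 53.9 CPM in control replicate 3, and 1.18 and 0.729 CPM in control replicates 1 and 2. The pan-leukocyte gene PTPRC was at most 0.148 CPM in any library. Of 3 endothelial markers 1 averaged at least 1 CPM (CDH5), and their sum was 11.9 to 18.9 CPM in BD, 6.66 to 16.3 CPM in NBD, 16.8 CPM in control replicate 3, and 2.61 and 1.85 CPM in control replicates 1 and 2, with PECAM1 at most 0.197 CPM. Both sums were low in control replicates 1 and 2, as KRT15 was, and their part in the KRT15 values was not tested. The drop in the endothelial sum came from CDH5, whereas VWF, the other tested endothelial marker, ran the opposite way. VWF peaked in control replicate 1 (1.53 CPM) and control replicate 2 (1.07 CPM), and no other library exceeded 0.703 CPM. Fibroblast markers summed to at most 5.24 CPM, with THY1 at 0, and melanocyte markers to at most 5.63 CPM.

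KRT5 was abundant in every library and varied most among the controls. It stood at 719.6, 509 and 521 CPM in BD replicates 1 to 3, at 508, 668 and 323 in NBD replicates 1 to 3, and at 1012, 1242 and 367 in control replicates 1 to 3. Control replicates 1 and 2 were the highest of the 9 libraries, while control replicate 3 and NBD replicate 3 were the lowest, so BD, NBD and control overlapped. In bulk RNA, fewer cells that express a gene and less of its RNA per cell cannot be told apart, and this holds for each level given here.

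KRT14 stood at 162, 339.9 and 379 CPM in BD replicates 1 to 3, at 139, 437 and 380.0 CPM in NBD replicates 1 to 3, and at 321, 387 and 343 CPM in control replicates 1 to 3. It was low in replicate 1 of both sorted subpopulations and between 321 and 437 CPM in the other 7 libraries. The 3 control libraries, which were far apart for the other basal keratins, lay close together for KRT14.

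KRT15 stood at 359, 314 and 446 CPM in BD replicates 1 to 3, at 393, 285 and 431 CPM in NBD replicates 1 to 3, and at 27.1, 27.3 and 442 CPM in control replicates 1 to 3. Control replicate 3 was within the range of the sorted cells, and control replicates 1 and 2 were far below every other library. These low levels still rest on 530 and 487 counts, against 6883 to 12937 counts in the other 7 libraries.

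**Figure D1:**
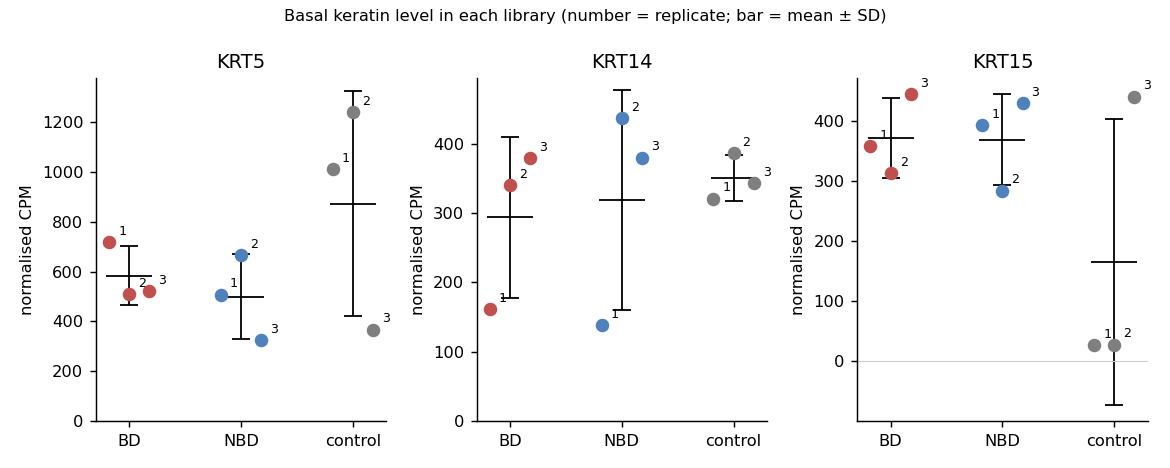
Normalised CPM of KRT5, KRT14 and KRT15 (y axis, linear) in BD, NBD and control (x axis); each point is a library numbered by replicate, the wide bar is the mean and the whiskers the SD of 3 libraries. Control replicates 1 and 2 stand at 1012 and 1242 CPM for KRT5 and at 27.1 and 27.3 CPM for KRT15, and KRT14 is low in BD replicate 1 (162 CPM) and NBD replicate 1 (139 CPM).

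The 3 genes thus varied in different libraries. Over the 9 libraries the root mean square deviation of log2(CPM + 0.5) from the gene's own mean was 1.58 for KRT15, 0.60 for KRT5 and 0.55 for KRT14, above those of 99.3%, 91.0% and 88.9% of the 10000 tested protein-coding genes with a mean of at least 5 CPM. Within the 6 sorted libraries the order was different. The SD of log2(CPM + 0.5) there was 0.71 for KRT14, 0.40 for KRT5 and 0.26 for KRT15, above those of 98.0%, 82.2% and 46.2% of the same genes. From the lowest to the highest sorted library, KRT14 spanned 3.16-fold, KRT5 2.23-fold and KRT15 1.57-fold.

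Between genes, levels can be compared only per length, and here the order depended on which length was taken. Per kilobase of coding sequence, KRT5 averaged 329.5 ± 66.8 CPM in BD, 282 ± 97.4 in NBD and 494 ± 256 in control (SD, n = 3 each). KRT14 averaged 207 ± 81.9 CPM per coding kilobase in BD, 225 ± 112 in NBD and 247 ± 23.6 in control. Against these, KRT15 averaged 273 ± 49.0 CPM per coding kilobase in BD, 270.3 ± 55.6 in NBD and 121 ± 175 in control. On this scale the BD order was KRT5, KRT15, KRT14. The BD libraries of KRT5 (287 to 407) lay above those of KRT14 (114 to 268), and KRT15 (229 to 326) overlapped both. In NBD and in control each pair of genes overlapped. Per kilobase of all annotated exons, which add up to 7069 bases for KRT15, 4292 for KRT5 and 2281 for KRT14, KRT15 was the lowest of the 3 in every library, averaging 52.8 ± 9.49 CPM in BD, 52.3 ± 10.8 CPM in NBD and 23.4 ± 33.8 CPM in control.

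The question set by the design was whether the sorted subpopulations differ, and no basal keratin was called between BD and NBD. By edgeR's quasi-likelihood test over all 9 libraries, the log2 fold change of BD over NBD was 0.22 ± 0.41 (SE) for KRT5, with means of 583 ± 118 CPM in BD and 499.8 ± 172 CPM in NBD (SD, n = 3 each; Benjamini-Hochberg adjusted p = 0.953). For KRT14 it was -0.12 ± 0.41, with means of 293 ± 116 CPM in BD and 319 ± 159 CPM in NBD (adjusted p = 0.980). For KRT15 it was 0.01 ± 0.86, with means of 373 ± 67.1 CPM in BD and 369.7 ± 76.0 CPM in NBD (adjusted p = 1.00). Of all genes tested, 0.0177% were called in this comparison at an adjusted p under 0.05. By edgeR 0 of the 3 basal keratins were called, and 0 had an unadjusted p under 0.05, against 5.86% of all genes tested. DESeq2, which called 0.343% of genes, called neither KRT5 nor KRT14 and gave KRT15 no p-value. The groups overlapped for all 3 genes, where 14.6% of tested genes had groups that did not overlap. The SE of the KRT15 value took in the spread among the controls, and without control replicate 3 it was 0.0024 ± 0.21 (edgeR, adjusted p = 0.998), in a fit that called 0.0901% of genes.

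BD and NBD were set against control with the same 3 control libraries, so both comparisons carry any error of those libraries. KRT5 was at a log2 fold change of -0.58 ± 0.42 in BD over control (edgeR, adjusted p = 0.505) and at -0.81 ± 0.42 in NBD over control (adjusted p = 0.548), with a control mean of 874 ± 453 CPM (SD, n = 3). KRT14 was at -0.25 ± 0.41 in BD over control (adjusted p = 0.771) and at -0.14 ± 0.41 in NBD over control (adjusted p = 0.902), with a control mean of 350.2 ± 33.5 CPM. KRT15 was at 1.17 ± 0.87 in BD over control (adjusted p = 0.520) and at 1.16 ± 0.87 in NBD over control (adjusted p = 0.608), with a control mean of 165 ± 239 CPM. By edgeR 0 basal keratins were called, where 0% of all tested genes were, and 0 had an unadjusted p under 0.05, where 13.8% of genes did in BD over control and 9.13% in NBD over control. DESeq2 called 0.987% of genes in BD over control and 0.177% in NBD over control. Neither KRT5 nor KRT14 was among them, KRT5 in NBD over control having an unadjusted p of 0.0427 (DESeq2, adjusted p = 0.436), and KRT15 again had no p-value. The groups overlapped for all 3 genes in both comparisons, where 15.8% and 8.42% of tested genes did not overlap.

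The KRT5 and KRT15 contrasts against control came from control replicates 1 and 2, and were weaker with control replicate 3 included. Without it, KRT15 rose by 3.79 ± 0.28 on the log2 scale in BD (edgeR, adjusted p = 2.5e-05) and by 3.78 ± 0.28 in NBD (adjusted p = 2.8e-05). KRT5 fell by 0.94 ± 0.29 in BD (adjusted p = 0.0361) and fell by 1.16 ± 0.29 in NBD (adjusted p = 0.0197). In the same fits KRT14 was at -0.26 ± 0.44 (adjusted p = 0.708) and -0.13 ± 0.45 (adjusted p = 0.865). In those fits 24.3% of all tested genes were called for BD (13.8% higher, 10.5% lower) and 18.2% for NBD (11.6% higher, 6.56% lower), so a call was common. When control replicate 3 alone stood for control, the direction turned for both genes: KRT5 was at 0.66 ± 0.40 in BD and 0.42 ± 0.39 in NBD, and KRT15 at -0.25 ± 0.32 and -0.26 ± 0.32, all with adjusted p = 1.00. That fit takes the spread of the lone library from the other groups, and 0% of genes were called in it. With no filter on low counts, edgeR called KRT15 at 1.17 in BD (adjusted p = 6.1e-04) and 1.15 in NBD (adjusted p = 0.00184), where 2.95% and 1.51% of genes were called, and 0.333% in BD over NBD.

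**Figure D2:**
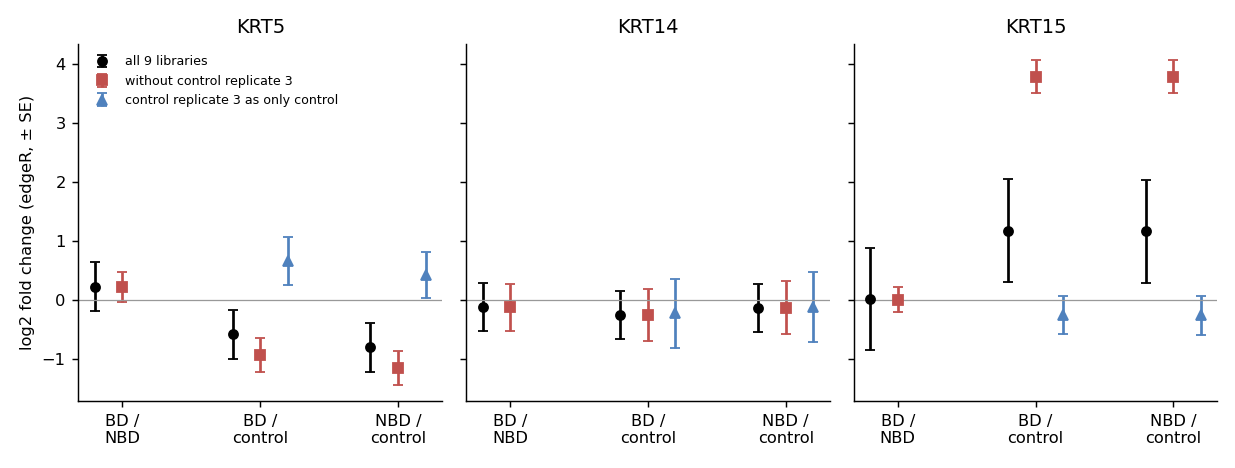
Log2 fold change (y axis) with its standard error from edgeR for BD over NBD, BD over control and NBD over control (x axis), with all 9 libraries (black circles), without control replicate 3 (red squares) and with control replicate 3 alone as control (blue triangles, for comparisons with control). KRT14 stays near 0 throughout, while KRT15 against control lies at 3.79 in BD and 3.78 in NBD without control replicate 3 and below 0 against control replicate 3 alone.

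As a share of all keratin counts, KRT5 and KRT15 differed among libraries much as their CPM did. KRT14 did so less closely, as its share was higher in control replicates 1 and 2 than in control replicate 3. Protein-coding keratin genes together held 0.497, 0.638 and 0.645% of all counts in BD replicates 1 to 3, 0.403, 0.485 and 0.450% in NBD, and 0.427, 0.505 and 0.583% in control. KRT5 took 15.1, 7.89 and 8.10% of keratin counts in BD, 12.9, 12.9 and 6.19% in NBD, and 25.7, 25.6 and 6.49% in control. KRT14 took 3.38, 5.27 and 5.89% in BD, 3.53, 8.43 and 7.28% in NBD, and 8.14, 7.97 and 6.06% in control. The KRT5 share of control replicates 1 and 2 was the highest, and the KRT14 shares were lowest in BD replicate 1 and NBD replicate 1. KRT15 took 7.51, 4.87 and 6.93% in BD, 10.0, 5.49 and 8.25% in NBD, and 0.687, 0.563 and 7.80% in control. Type I keratins as a whole had 1.12, 1.87 and 2.62 counts per type II count in BD, 1.30, 1.31 and 2.77 in NBD, and 0.547, 0.542 and 2.59 in control, so control replicates 1 and 2 were the libraries with fewer type I than type II counts. Wilson 95% intervals for these shares spanned at most 0.617 percentage points and cover counting error only. A share falls whenever another keratin rises, so these values are not independent of one another.

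**Figure D3:**
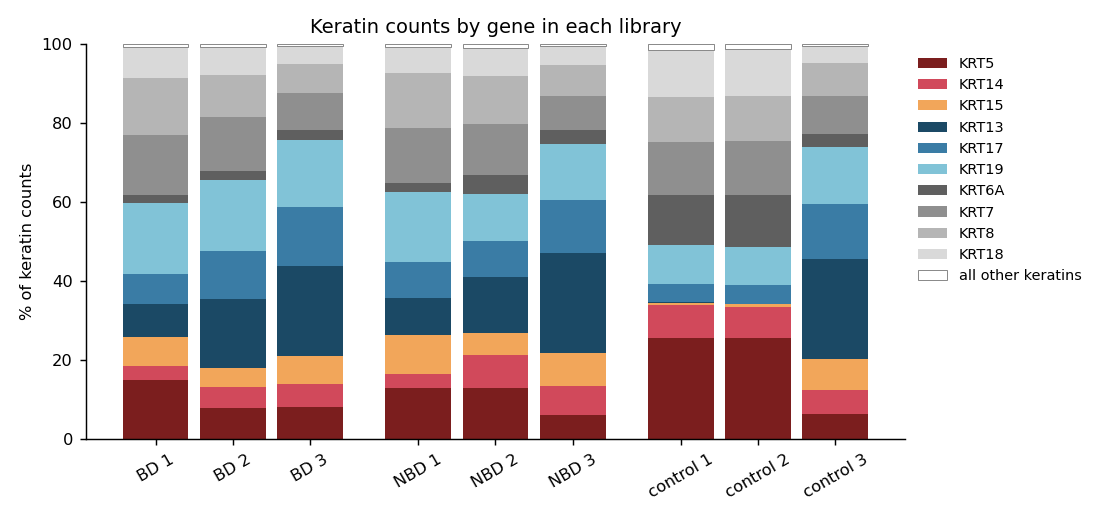
Percent of all counts on protein-coding keratin genes (y axis) taken by each gene in each library (x axis); the basal keratins are at the bottom in red and orange, the type I neighbours KRT13, KRT17 and KRT19 in blue, and other keratins in grey or white. KRT5 takes 25.7 and 25.6% in control replicates 1 and 2 with almost no KRT15 or KRT13, and control replicate 3 resembles the sorted libraries.

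The pairing partners KRT14 and KRT5 were not held at a fixed ratio. KRT14 counts per KRT5 count were 0.225, 0.668 and 0.727 in BD replicates 1 to 3, 0.273, 0.655 and 1.18 in NBD, and 0.317, 0.311 and 0.934 in control. As the genes differ in length, only the change of this ratio among libraries can be read. It was lowest in replicate 1 of BD, replicate 1 of NBD and control replicates 1 and 2, in the sorted libraries where KRT14 was low and in the controls where KRT5 was high. On the log2 scale the ratio differed by -0.31 for BD minus NBD (exact permutation test, two-sided, p = 0.700), by 0.08 for BD minus control (exact p = 1.00) and by 0.40 for NBD minus control (exact p = 0.700). With 3 libraries against 3 the smallest p this test can give is 0.1.

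Between the type I genes, KRT15 counts per KRT14 count were 2.22, 0.924 and 1.18 in BD, 2.84, 0.651 and 1.13 in NBD, and 0.0844, 0.0706 and 1.29 in control. The ratio was highest in replicate 1 of BD and of NBD, and control replicate 3 was within the range of the sorted libraries. On the log2 scale it averaged 0.42 ± 0.65 in BD, 0.36 ± 1.07 in NBD and -2.34 ± 2.35 in control (SD, n = 3 each). BD minus NBD had an exact permutation p of 0.900, and each sorted subpopulation minus control had an exact p of 0.300 (two-sided).

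Of the 55 protein-coding keratin genes, 16 were tested, 15 had no count in any library, and the 39 untested ones reached at most 0.729 CPM. By edgeR with all libraries 0 of the 16 were called in any of the comparisons. The median log2 fold change over the 16 was 0.16 for BD over NBD (-0.02 over all tested genes), 0.18 for BD over control (0.03 over all) and 0.13 for NBD over control (0.04 over all). At an unadjusted p under 0.05 there were 0, 2 and 1 keratins by edgeR in these comparisons, where the shares over all genes were 5.86%, 13.8% and 9.13%. DESeq2 called 1, KRT6A, in BD over control (adjusted p = 0.0243), where it called 0.987% of all genes. Without control replicate 3, 17 keratins were tested, and edgeR called 5 higher and 3 lower in BD over control. KRT13, KRT15, KRT16, KRT17 and KRT19 were higher, and KRT5, KRT6A and KRT80 lower. In NBD over control it called 4 higher, the same list without KRT19, and 4 lower, KRT5, KRT6A, KRT18 and KRT80. Over all genes the shares called in these fits were 24.3% for BD and 18.2% for NBD.

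Around the type I basal keratins, neighbouring genes differed in how far they followed KRT15. KRT13, a keratin of moist stratified linings such as the mouth, has its midpoint at -14.8 kb from that of KRT15, toward lower coordinates. It stood at 389, 1122 and 1479 CPM in BD, at 367, 734 and 1328 CPM in NBD, and at 4.19, 4.43 and 1427 CPM in control. Control replicates 1 and 2 were thus far below all other libraries, by more than for KRT15. KRT19, a type I keratin of simple epithelia and of some progenitor cells, lies on the other side, at 7.83 kb, and stood at 859, 1170.0 and 1085 CPM in BD, at 694, 618 and 736 CPM in NBD, and at 388, 468 and 816 CPM in control. KRT19 was lowest in control replicates 1 and 2, though it dropped less there than KRT15 did. All KRT19 values in BD were above those in NBD and in control, without a call. The log2 fold change by edgeR was 0.60 ± 0.28 over NBD (adjusted p = 0.814) and 0.90 ± 0.28 over control (adjusted p = 0.333).

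KRT14 itself, 66.5 kb from KRT15, showed no such drop, whereas both genes beyond it did. KRT16, a wound keratin, stood at 6.84, 9.42 and 10.4 CPM in BD, at 4.07, 6.21 and 7.47 CPM in NBD, and at 1.02, 1.01 and 8.55 CPM in control. KRT17, a keratin of skin appendages and of stressed epidermis, stood at 367, 782 and 957 CPM in BD, at 354, 478 and 702 CPM in NBD, and at 179.7, 238 and 794 CPM in control. Both were lowest in control replicates 1 and 2, and within BD and within NBD they were lowest in replicate 1, as were KRT13 and KRT14. Of the other protein-coding neighbours within 100 kb of KRT15 or KRT14, none reached 1 CPM in any library.

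**Figure D4:**
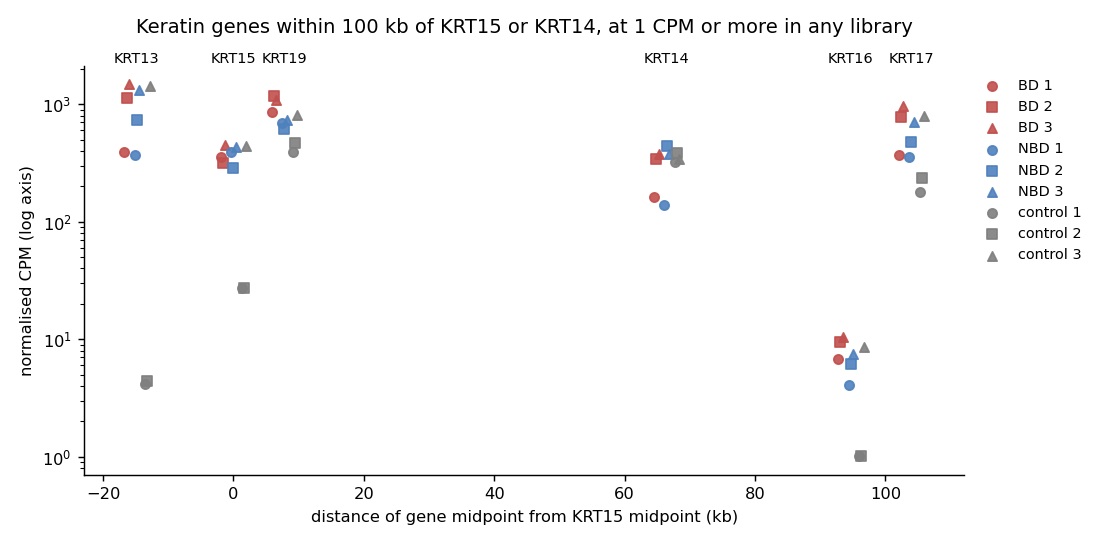
Normalised CPM (y axis, log scale) of keratin genes within 100 kb of KRT15 or KRT14 that reached 1 CPM, against the distance of their midpoint from that of KRT15 (x axis, kb); colours are groups, symbols are replicates, and points are shifted slightly sideways to separate libraries. Control replicates 1 and 2 lie at 4.19 and 4.43 CPM for KRT13 and 27.1 and 27.3 CPM for KRT15, but among the other libraries for KRT14.

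Near KRT5, only KRT6A and KRT6B of 8 protein-coding neighbours within 100 kb reached 1 CPM in a library. KRT6A, a type II keratin induced on wounding, stood at 103, 137 and 169 CPM in BD, at 86.8, 246 and 183 CPM in NBD, and at 499, 630.5 and 189 CPM in control. It was highest in the same control libraries as KRT5, and all BD libraries were below all control libraries. Its log2 fold change was -1.69 ± 0.46 in BD over control (edgeR, adjusted p = 0.333) and -1.36 ± 0.46 in NBD over control (adjusted p = 0.539). Without control replicate 3 it fell by 2.04 ± 0.36 in BD (adjusted p = 0.00298) and fell by 1.70 ± 0.36 in NBD (adjusted p = 0.00937).

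Among the simple epithelial keratins, KRT7 and KRT8 were close among the controls and KRT18 was less so. KRT7 averaged 733 ± 145 CPM in BD, 560.0 ± 117 CPM in NBD and 579.7 ± 78.5 CPM in control (SD, n = 3 each). The type II keratin KRT8 averaged 618 ± 124 CPM in BD, 528 ± 98.9 CPM in NBD and 491 ± 53.3 CPM in control. KRT18, the type I partner of KRT8, averaged 373 ± 80.5 CPM in BD, 291 ± 72.6 CPM in NBD and 426 ± 168 CPM in control. It stood at 464, 573 and 242 CPM in control replicates 1 to 3, and replicates 1 and 2 were above every other library. The groups overlapped for KRT7, KRT8 and KRT18. KRT80 stood at 15.3 to 24.2 CPM in BD, 9.40 to 32.2 CPM in NBD, and 53.3, 53.9 and 11.5 CPM in control, high where KRT5 was high. KRT10, the keratin that replaces KRT14 in the layer above, was low throughout, at 8.37 ± 2.04 CPM in BD, 9.18 ± 1.42 CPM in NBD and 8.21 ± 2.30 CPM in control. It belongs to a list of 8 suprabasal markers, of which 4 were tested and LOR was at 0 in every library. The list summed to 15.7 to 42.3 CPM in BD, 18.8 to 97.0 CPM in NBD, and 55.9, 50.4 and 22.5 CPM in control. FLG, which encodes filaggrin of the upper epidermis, made up most of the highest sums. It stood at 30.2, 11.7 and 4.03 CPM in BD, 44.0, 83.3 and 4.56 CPM in NBD, and 42.6, 38.0 and 6.48 CPM in control. FLG was low in replicate 3 of every group, but the other tested members of the list did not all follow it. TGM1 was highest in replicate 3 of each group, at 5.45 CPM in BD, 3.58 in NBD and 5.20 in control. KRT10 was highest in replicate 3 of NBD (10.2 CPM) and of control (10.8 CPM) and lowest in BD replicate 3 (6.17 CPM). IVL, at most 1.18 CPM in any library, was at 0 in control replicate 3. KRT5 was low in NBD replicate 3 and control replicate 3 but not lowest in BD replicate 3. The part of FLG in the KRT5 values was not tested.

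A list of 28 genes that regulate, anchor or link basal keratins was tested in full, with 0 called by edgeR in any comparison with all libraries. At an unadjusted p under 0.05 there were 3 in BD over NBD (DST, LAMB3 and JUP), 6 in BD over control and 3 in NBD over control, where the shares over all genes were 5.86%, 13.8% and 9.13%. DESeq2 called 0 of the list, where it called 0.343%, 0.987% and 0.177% of all genes. The median log2 fold changes of the list were 0.05, -0.21 and -0.22 for the 3 comparisons, against -0.02, 0.03 and 0.04 over all genes. TP63, the transcription factor of the basal layer that acts on keratin genes such as KRT5 and KRT14, stood at 196, 254 and 343 CPM in BD, at 159.6, 233 and 264 CPM in NBD, and at 300.2, 283 and 285 CPM in control. Like KRT14, it was nearly equal among the control libraries and lowest in replicate 1 within BD and within NBD. Its NBD libraries lay below all control libraries, with a log2 fold change of -0.40 ± 0.25, which edgeR did not call (adjusted p = 0.569).

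Genes of the hemidesmosome, the plaque that fastens basal keratin filaments to the basement membrane, had 6 members on the list, and their patterns over the libraries differed. COL17A1, a transmembrane collagen of that plaque, stood at 342, 242 and 291 CPM in BD, at 322, 309.6 and 185 CPM in NBD, and at 505, 573 and 234 CPM in control. The integrin subunit ITGA6 stood at 360.0, 341 and 389.6 CPM in BD, at 288.5, 446 and 348 CPM in NBD, and at 769.5, 743 and 322 CPM in control. Both were highest in control replicates 1 and 2, where KRT5 was highest. Its partner ITGB4 stood at 620.4, 461 and 505 CPM in BD, 489.6, 364 and 197 CPM in NBD, and 296, 343 and 389 CPM in control, with all 3 control libraries below every BD library. PLEC, the plectin linker of keratins to the plaque, stood at 306, 199 and 127 CPM in BD, 251, 313 and 27.5 CPM in NBD, and 216, 277 and 129 CPM in control, lowest in NBD replicate 3. DST, which encodes a further linker of the plaque, stood at 354, 194 and 244 CPM in BD, 668, 484 and 342 CPM in NBD, and 493, 221 and 333 CPM in control. It was not raised in both control replicates 1 and 2, and its BD and NBD libraries overlapped. It had the lowest unadjusted p of the list in BD over NBD, at a log2 fold change of -0.92 ± 0.35 (edgeR, adjusted p = 0.814, unadjusted p = 0.0255). The tetraspanin CD151 stood at 82.6 to 131 CPM over the 9 libraries, with log2 fold changes of -0.02, 0.0012 and 0.02 in the 3 comparisons.

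DSP, desmoplakin, ties keratin filaments to desmosomes between cells, and stood at 370.4, 272 and 359 CPM in BD, 403, 542 and 245 CPM in NBD, and 895, 839.9 and 364 CPM in control. It too was highest in control replicates 1 and 2. Without control replicate 3, the list had 3 members called higher and 8 lower in BD over control, and 1 higher and 6 lower in NBD over control, beside the 24.3% and 18.2% of all genes called. DSP fell by 1.37 ± 0.29 in BD (edgeR, adjusted p = 0.00709) and fell by 1.12 ± 0.29 in NBD (adjusted p = 0.0230). COL17A1 fell by 0.88 ± 0.25 in BD (edgeR, adjusted p = 0.0283) and fell by 0.97 ± 0.25 in NBD (adjusted p = 0.0238). The transcription factor KLF4 was called higher in both, at 2.97 ± 0.36 in BD (adjusted p = 4.3e-04) and 2.47 ± 0.35 in NBD (adjusted p = 0.00132). It stood at 64.8, 115 and 156 CPM in BD, 70.9, 67.1 and 99.5 CPM in NBD, and 14.7, 14.2 and 130 CPM in control. Control replicate 3 was thus within the range of the sorted libraries. With all libraries KLF4 was at 1.08 ± 0.73 in BD over control (edgeR, adjusted p = 0.489) and 0.58 ± 0.73 in NBD over control (adjusted p = 0.747).

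LAMA3 and LAMB3, which encode chains of a basement membrane laminin that the hemidesmosome binds, did not change in one direction. LAMA3 stood at 382, 357 and 336 CPM in BD, 422, 545 and 314 CPM in NBD, and 703, 749.7 and 292 CPM in control. LAMB3 stood at 789, 751.5 and 810.2 CPM in BD, 677, 480.2 and 378 CPM in NBD, and 412, 511 and 612 CPM in control. LAMA3 was thus highest in control replicates 1 and 2, with KRT5, whereas LAMB3 was higher in every BD library than in any NBD or control library. For BD over NBD, LAMB3 was at 0.61 ± 0.25 without a call (edgeR, adjusted p = 0.814, unadjusted p = 0.0328). Without control replicate 3, LAMB3 rose by 0.77 ± 0.25 in BD over control (adjusted p = 0.0476), and LAMA3 fell by 1.01 ± 0.23 (adjusted p = 0.00973).

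Genes with the most similar level pattern were sought among the 10000 tested protein-coding genes at 5 CPM or more. Likeness was the root mean square difference of log2(CPM + 0.5), centred on each gene's mean, over the 9 libraries. For KRT5 the nearest genes were DLK2, PABPC4, COL17A1, POM121 and IMPDH1, at differences of 0.16 to 0.18. The nearest gene, DLK2, stood at 3.72 to 4.79 CPM in BD, 2.79 to 5.30 CPM in NBD, and 9.04, 10.7 and 2.94 CPM in control. For KRT15 the nearest were GLMP, EREG, ATF3, SORT1 and TMEM25, at 0.17 to 0.23. EREG, the growth factor epiregulin, stood at 155, 174 and 167 CPM in BD, 168, 101 and 157 CPM in NBD, and 8.79, 9.25 and 169 CPM in control.

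For KRT14 the nearest were PROCR, CTSV, IL7R, HSPA2 and SLC6A15, at 0.20 to 0.23. IL7R, a cytokine receptor subunit, stood at 39.5, 111 and 97.3 CPM in BD, 36.3, 97.6 and 114 CPM in NBD, and 79.2, 71.8 and 88.7 CPM in control. As KRT14 was, all 5 genes were lowest in BD replicate 1 and NBD replicate 1, which their choice by likeness to KRT14 favours. The basal keratins were not near each other by this measure: KRT14 lay 0.81 from KRT5 and KRT15 lay 2.11 from KRT5 and 1.79 from KRT14. In the order of likeness to KRT5, KRT14 was number 7777 and KRT15 number 9935 of 9999 genes. The measure is not scaled by spread, so it also grows with a difference in spread. That spread was 1.58 for KRT15 and 0.60 for KRT5, so the rank of KRT15 does not reflect its pattern alone. The 9 libraries fall into unlike sets, so these distances describe the libraries and carry no test.

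**Figure D5:**
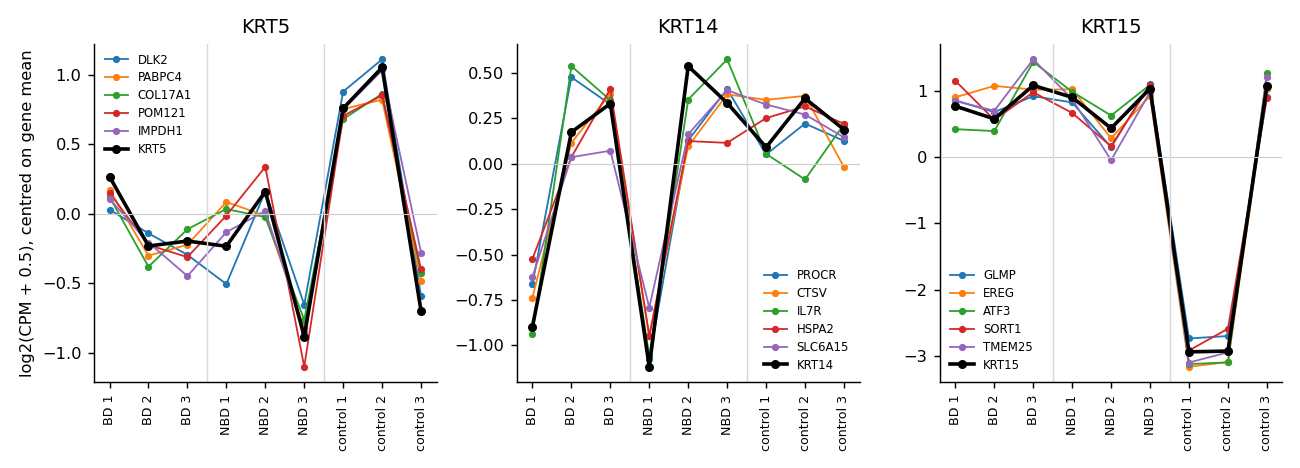
Log2(CPM + 0.5) centred on each gene's mean (y axis) in each of 9 libraries (x axis) for KRT5, KRT14 and KRT15 (black) and the 5 nearest protein-coding genes of each (colours). KRT5 is high in control replicates 1 and 2, KRT14 is low in replicate 1 of BD and of NBD, and KRT15 is low in control replicates 1 and 2.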

How the data were processed

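The values deposited by the authors are raw counts of reads per gene for 9 libraries of total RNA, of 17128797 to 29512856 counts each. Libraries were stranded, rRNA-depleted and paired-end, per the labels' protocols, and RNA came from 2 micro-scale kits, and the labels do not tie kits to libraries. FastQC 0.74, Trimmomatic 0.39, STAR 2.7.11b, featureCounts and GRCh38 are named in the submitters' processing notes. For the annotation release and the handling of strand and multiply matching reads, nothing is given in the sources used here.

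Symbols came from a gene name table and GENCODE 29, and covered 99.8% of counts. Tests used edgeR 4.0.16 in R 4.3.3, with filterByExpr, TMM scaling, 1 quasi-likelihood fit over all libraries with a term per group (6 residual degrees of freedom), two-sided tests and Benjamini-Hochberg adjustment over all genes tested. CPM is relative to the TMM-scaled total. The SE of a log2 fold change was its size divided by the square root of the F statistic. Count ratios had 0.5 added to each count and were compared by exact permutation over libraries. DESeq2 1.42.0 was an alternative. Other alternatives were DESeq2's size factors, no filter, 1 CPM in at least 3 libraries, a replicate block, the 6 libraries compared alone, removal of mitochondrial rRNA genes, control replicate 3 as the only control, and leaving out each library.

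The test was checked on simulated data with 200 changed genes. Genes named are the basal keratins, keratins at 5 CPM or more in a group, the partner list (6 fixed genes and up to 4 called per direction), neighbours within 100 kb and the 5 nearest genes by pattern. DLK2, IL7R and EREG were picked from these, and DST, CD151, JUP, KRT6B, KRT6C and the marker genes named, after their values were seen. One gene of the partner list is counted but not reported here by name. The members, lists and tests were chosen with earlier results of these data known. Plots used matplotlib 3.10.9 in Python 3.11.15.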

Additional observations from a re-analysis of the deposited data

How the results depend on the processing

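Of the 345 values recomputed under alternatives, 289 kept their direction and side of the threshold or, for counts of calls, stayed within 1.5 times. Against control, log2 fold changes with only control replicate 3 kept turned to 0.66 (BD) and 0.42 (NBD) for KRT5 and to -0.25 (BD) and -0.26 (NBD) for KRT15. KRT15 was called with no filter on low counts, at 1.17 in BD (edgeR, adjusted p = 6.1e-04) and 1.15 in NBD (adjusted p = 0.00184), where the spread was estimated with all detected genes and the cause was not tested. For KRT15 in BD over NBD the sign turned to -0.0073 with 1 CPM in at least 3 libraries and to -0.0040 with the 6 libraries alone, both within its error of 0. Leaving out 1 library at a time, KRT5 ran from -0.0042 to 0.49 in BD over NBD, from -0.94 to -0.25 in BD over control and from -1.16 to -0.47 in NBD over control. KRT14 ran from -0.48 to 0.18, from -0.47 to 0.0400 and from -0.43 to 0.23 in the same comparisons, turning sign in BD over NBD without BD replicate 1, NBD replicate 2 or NBD replicate 3, and against control without replicate 1 of the sorted group. KRT15 ran from -0.14 to 0.15, from 0.65 to 3.79 and from 0.65 to 3.78. The log2 ratio of KRT14 to KRT5 ran from -0.88 to 0.23, from -0.22 to 0.63 and from -0.10 to 0.96, and that of KRT15 to KRT14 from -0.42 to 0.64, from 2.02 to 4.12 and from 1.96 to 4.05.

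Genes called in BD over NBD, in BD over control and in NBD over control were 3, 0 and 0 with all libraries, 131, 1162 and 594 with no filter, and 58, 167 and 30 by DESeq2. In BD over NBD 5 were called with the 6 libraries alone, and leaving out 1 library gave 0 to 16, 0 to 4317 and 0 to 3228. With no filter these were 0.333%, 2.95% and 1.51% of all genes. Of the 16 keratins tested with all libraries, 0 were called in each comparison. With no filter 6 keratins were called in BD over control and 3 in NBD over control. DESeq2 called 1 in BD over control, where it called 0.987% of all genes. Leaving out 1 library gave 0 to 8 keratins in each control comparison. Of the 28 genes of the partner list, 0 were called with all libraries. With no filter 1 was called in BD over NBD and 3 in BD over control. Leaving out 1 library gave 0 to 11 and 0 to 7 of them against control. Each upper end against control came without control replicate 3, where 24.3% of all genes were called for BD and 18.2% for NBD. In that fit 17 keratins and all 28 partner genes were tested.

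The labels do not state whether replicate numbers pair the libraries, and the main fit has no term for them. Deviations of BD and NBD libraries with the same number correlated across genes at 0.66, 0.08 and 0.37. With control libraries of the same number the values were 0.26, 0.05 and 0.29 for BD and 0.0025, 0.49 and 0.36 for NBD. Libraries with different numbers ran from -0.63 to 0.48, the highest being BD replicate 2 with NBD replicate 3. A shared effect of the replicate number thus remains possible. With the replicate number as a block, 0 genes were called in BD over NBD. KRT15 was then at 2.15 in BD and 2.14 in NBD over control (edgeR, adjusted p = 0.200 and 0.334), KRT5 at -0.41 and -0.73, and KRT14 at -0.38 and -0.31, with no member called. Replicates of each group differed by more than counting error. Each basal keratin had at least 487 counts in every library.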
